A study of Mus musculus with 2 samples.

Results

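Integrins are the receptors by which cells hold on to matrix and to each other, and 33 genes of that system were followed through the healing cranial defect: 26 integrin subunits (18 alpha and 8 beta chains) and 7 proteins that bind their short tails inside the cell, namely the talins Tln1 and Tln2, the kindlins Fermt2 and Fermt3, vinculin (Vcl), integrin-linked kinase (Ilk) and paxillin (Pxn). They were taken by symbol from the 27998 genes listed in the deposited count matrices, and all 33 were found. The samples were 2 single-cell libraries from wild-type C57BL/6 mice with a 2 mm hole in the parietal bone, filled with a hydrogel the labels name CGG in one library and CGG-Cit in the other. Tissue of the defect was taken on day 14, digested in 0.3% collagenase and passed through a 70 µm strainer. Each hydrogel has 1 library, the labels give neither the age, the sex nor the number of the mice behind it, and no defect without hydrogel is among the samples. A difference between the libraries therefore has no replicate check, no p-value is given, and every interval below is a 95% interval for counting error alone.

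An integrin is a pair of 1 alpha and 1 beta chain, and most of the chains are used by particular tissues. Chains paired with Itgb2 are made by leukocytes and bind ligands such as Icam1, the alpha chains Itga1, Itga2, Itga10 and Itga11 pair with Itgb1 to bind collagen, Itga3, Itga6 and Itga7 bind laminin, and Itga5, Itga8 and Itgav bind the RGD motif of fibronectin, vitronectin or osteopontin. Integrins are switched on from within: talin and kindlin bind the beta tail, and vinculin, paxillin and the kinase-like scaffold Ilk build the link to actin. Fermt3 is the kindlin of blood cells and Fermt2 that of most other cells, and inherited loss of Itgb2 or of Fermt3 is known for leukocytes that cannot leave the blood.

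The deposited matrices hold 92517884 UMIs (unique molecular identifiers, 1 per captured transcript) over 12527 barcodes for CGG and 106173570 UMIs over 10806 barcodes for CGG-Cit. After filters and removal of predicted doublets, 11073 and 9994 cells were kept, with medians of 3969 and 5914 UMIs, and 27 barcode sequences occurred among the kept cells of both libraries. Cells were put into classes by lists of marker genes that hold none of the 33 members, and UMIs were summed per class and library and expressed as CPM, which scales every class to the same total. One feature sets the CGG library apart: 4080 of its kept cells (36.8%) fell in 5 clusters of mixed markers and low depth that hold 23 CGG-Cit cells, and these were left out of all classes. The classes differ greatly in size between the libraries: stromal cells numbered 1234 with CGG and 48 with CGG-Cit, macrophages 935 and 15, endothelial cells 135 and 46, and mural cells (the pericytes and smooth muscle cells around small vessels) 81 and 11. Only immature and mature neutrophils, monocytes, T cells, precursor B cells, maturing B cells and erythroid cells had at least 100 cells in each library, and values from smaller classes carry their cell numbers here.

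Because Fermt3 and Fermt2 divided the classes almost completely, and Itgam was highest in neutrophils, the 120 bases before the annotated start of each of these genes are shown (RefSeq, build GRCm38.p6, each 5′ to 3′ on the strand of its gene). Capitals mark GAGGAA or its reverse complement, part of the kind of site that the myeloid ETS factor PU.1 is known to bind, and CCGCCC or its reverse complement, the core bound by Sp factors.
Itgam, chr7:128062520-128062639, plus strand: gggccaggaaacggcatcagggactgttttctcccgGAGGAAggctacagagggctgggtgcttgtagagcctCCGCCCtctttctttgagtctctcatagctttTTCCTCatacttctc
Fermt3, chr19:7019470-7019589, minus strand: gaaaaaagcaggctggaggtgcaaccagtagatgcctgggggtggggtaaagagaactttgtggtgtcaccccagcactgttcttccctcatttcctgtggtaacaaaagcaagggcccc
Fermt2, chr14:45530066-45530185, minus strand: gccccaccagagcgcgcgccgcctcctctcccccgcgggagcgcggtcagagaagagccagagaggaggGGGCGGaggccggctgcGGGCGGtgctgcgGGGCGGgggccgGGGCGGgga
The Fermt2 window holds 4 copies of the Sp core in this stretch and the Fermt3 window none, and over 250 bases before the start the base composition was 76.0% G or C for Fermt2, 50% for Fermt3 and 49.6% for Itgam. Promoters of 23 members were found in the RefSeq table (26 promoters). Searched on both strands over 250 bases, GAGGAA was present in 9 of those 26 and in 23.3% of all 32851 mouse promoters, CCGCCC was present in 10 of 26 (9 members) and in 32.7% of all, and TATAAA was present in none of the 26 and in 12.4% of all. The shorter core GGAA shared by ETS factors was neither searched nor marked, and a match describes the letters only.

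Most members had their highest level in the same class with both hydrogels. Over the 15 classes with at least 10 cells in each library, 29 members had at least 20 UMIs in each library, and 26 of them had their highest CPM in the same class with CGG and with CGG-Cit. Over the 9 classes with at least 50 cells in each library, which leave out macrophages, stroma and vessels, 20 of 23 did. The 3 exceptions over 15 classes were near ties or rested on few cells: Itgav was at 98.8 CPM in stromal cells and 98.6 in macrophages with CGG, Itgb3 was at 26.5 in endothelial cells and 26.4 in T cells with CGG-Cit, and Tln2 was highest in stromal cells with CGG and in the 11 mural cells with CGG-Cit. Itgb6, an epithelial chain, was close to absent, with 6 UMIs in stromal cells with CGG and 1 UMI in myeloid progenitors with CGG-Cit over those classes.

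**Figure D1:**
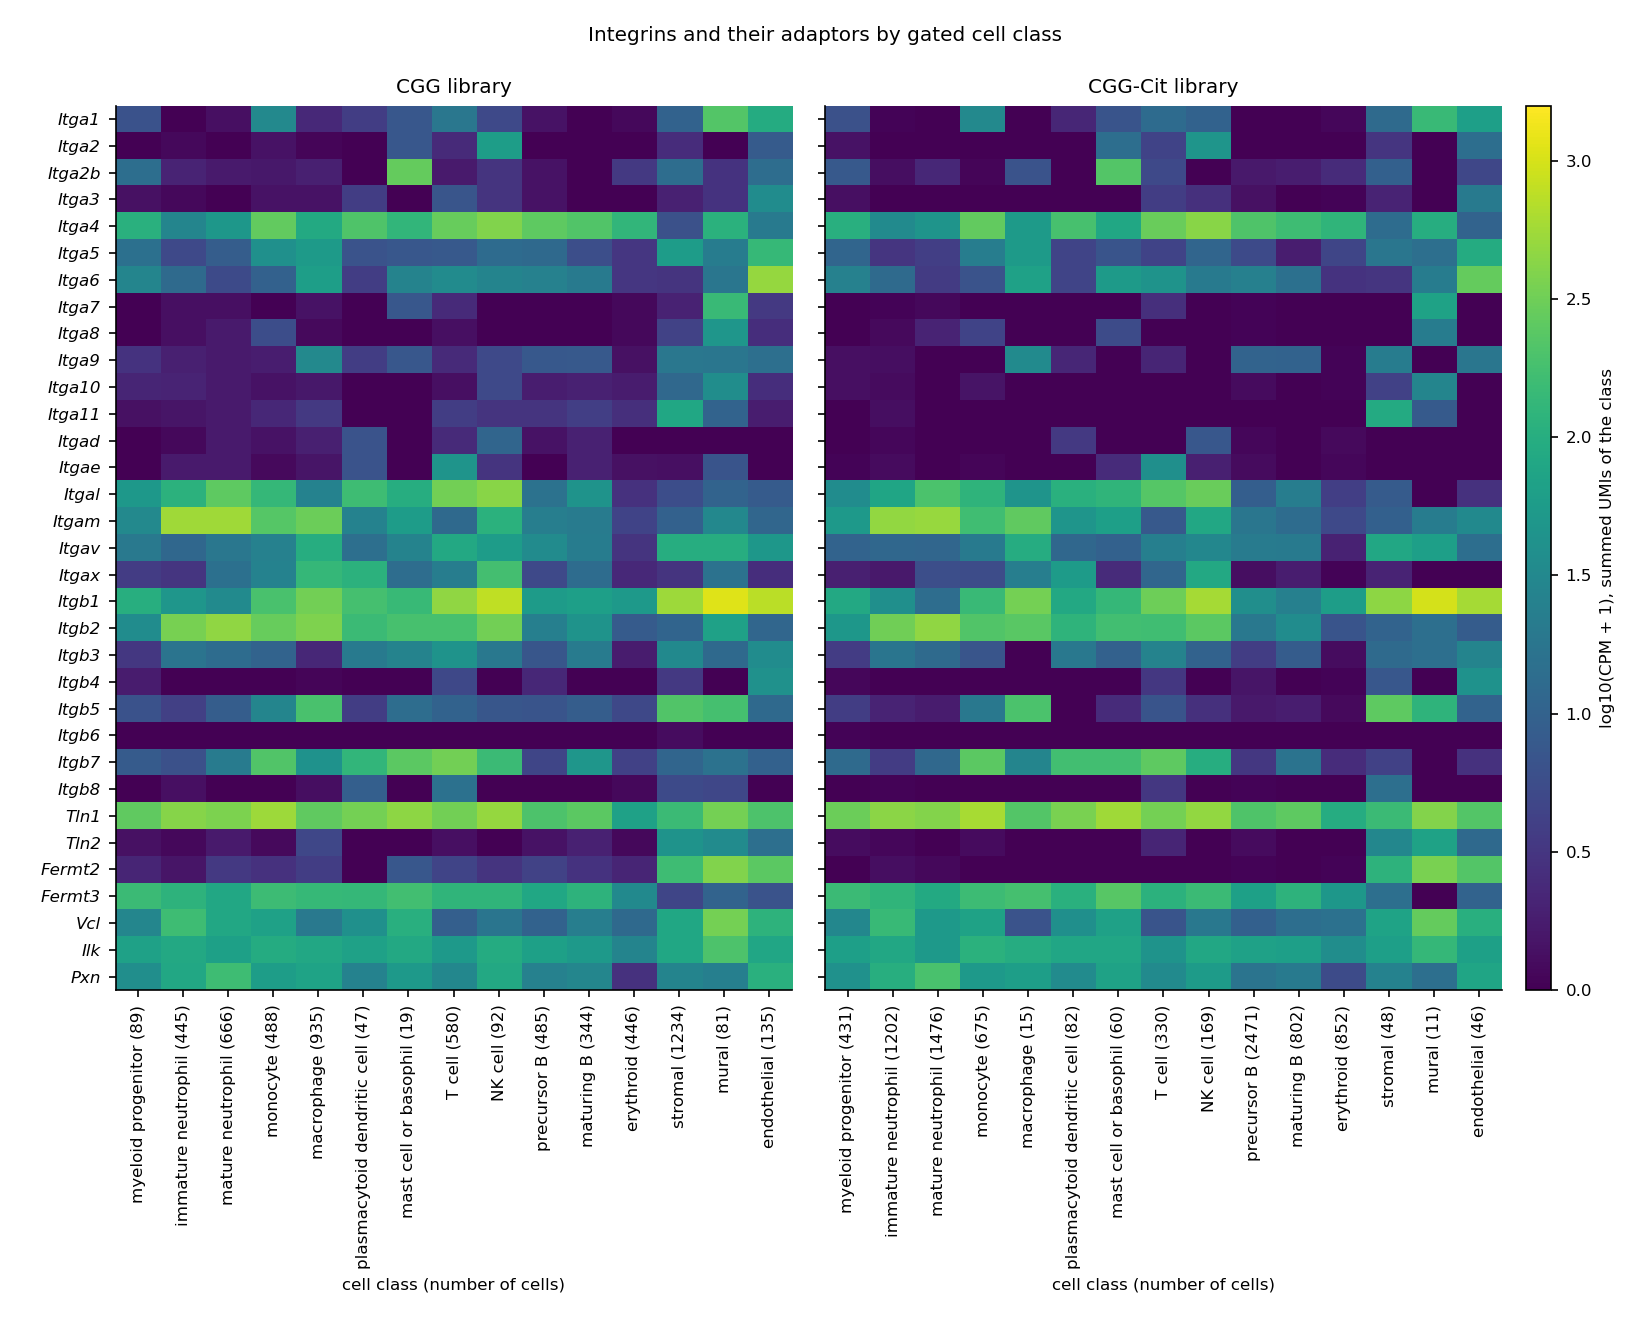
Level of each of the 33 genes (rows) in 15 cell classes (columns, with the number of cells) in the CGG library (left) and the CGG-Cit library (right), as log10(CPM + 1) of the summed UMIs. Itgam is highest in neutrophils, Itgal in NK and T cells, and Fermt3 is present across leukocytes, while the highest levels of Itga1, Itga7, Itgb1, Fermt2 and Vcl are in mural cells and that of Itga6 in endothelial cells, in both panels.

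Itgam, the alpha chain of Mac-1 by which neutrophils bind Icam1 and complement fragment iC3b, was highest in neutrophils. In mature neutrophils it stood at 559 CPM (interval 532 to 587, 1601 UMIs) with CGG and 508 (491 to 526) with CGG-Cit, and in immature neutrophils at 557 (537 to 577) and 486 (475 to 497). The intervals of the 2 neutrophil stages overlapped in each library, while macrophages, at 304 (293 to 315) and 259 (190 to 344, only 15 cells with CGG-Cit), and monocytes, at 226 (213 to 240) and 163 (155 to 172), were lower. A UMI of Itgam was seen in 97.8% of immature neutrophils in each library and in 75.8% and 74.1% of mature ones, against 4.83% and 3.33% of T cells, a class that should lack it. Their median depths were 10130 and 10178 UMIs for immature neutrophils, 3742 and 3958 for mature ones and 4201 and 4748 for T cells. With each cell thinned to 2000 UMIs the shares were 68.5% and 63.1% in immature neutrophils, 61.8% and 58.0% in mature ones and 2.86% and 1.88% in T cells (shallower cells were left out, which kept 441 and 1175 immature neutrophils, 578 and 1292 mature ones and 560 and 319 T cells).

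Itgb2, the common beta chain of these receptors, was likewise highest of the 15 classes in mature neutrophils. It was at 469 CPM (445 to 495) with CGG and 459 (443 to 476) with CGG-Cit there. Outside the 15 classes, the 10 CGG cells of the osteoclast gate had more, at 1443 (1304 to 1592). Itgal, the alpha chain of LFA-1, which holds lymphocytes to Icam1, was highest in NK cells, at 424 (369 to 486; 92 cells) and 295 (264 to 329; 169 cells), ahead of T cells at 327 (307 to 349) and 227 (205 to 250). Itgax, the CD11c chain often used to mark dendritic cells, was highest of the 15 classes in NK cells, at 173 (138 to 214) with CGG and 84.4 (68.2 to 103) with CGG-Cit. Plasmacytoid dendritic cells had 114 (81.98 to 155; 47 cells) and 56.2 (41.3 to 74.7; 82 cells), which overlapped the NK intervals. Outside the 15 classes, the 56 cells of the dendritic gate with CGG had 84.1 (63.5 to 109), and the 8 with CGG-Cit held 1 UMI. The 10 cells of the osteoclast gate, all with CGG, had more than NK cells, at 598 CPM. Macrophages stood at 136 (129 to 143) with CGG, but only 4 UMIs were counted in the 15 macrophages with CGG-Cit. Itgad, the rarest chain of the group, reached 10.2 CPM on 5 UMIs and 6.36 on 7 UMIs in NK cells. Over the 15 classes, all 4 alpha partners of Itgb2 had their highest value in neutrophils or NK cells in both libraries. For Itgad this rests on 5 and 7 UMIs, and for Itgax the NK interval overlapped that of macrophages with CGG.

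Itga4, which pairs with Itgb1 to bind Vcam1 and with Itgb7 to bind the gut addressin Madcam1, was found in every leukocyte class, from 27.9 CPM with CGG in immature neutrophils upwards. It was highest in NK cells, at 390 CPM (336 to 449) with CGG and 425 (387 to 465) with CGG-Cit. Of the 15 classes T cells came next, at 283 (263 to 303) and 292 (267 to 318). Monocytes were at 271 in each library, with intervals that overlap those of T cells. Outside the 15 classes, the 56 dendritic cells with CGG had 363 (319 to 412), above T cells and overlapping NK cells. The 8 with CGG-Cit had 231 (135 to 370). Mural cells also carried it, at 111 CPM with CGG and 97.7 with CGG-Cit, against 5.25 and 12.7 in stromal cells. Itgb7 was highest in T cells, at 325 (304 to 347) and 251 (228 to 275), and the monocyte level with CGG-Cit, 245 (234 to 256), overlapped it. Itgae, the chain that pairs with Itgb7 to hold T cells to E-cadherin of epithelium, was highest in T cells, at 44.2 (36.8 to 52.7) and 38.4 (29.8 to 48.8). Among the classes under 10 cells in a library, the 56 dendritic cells with CGG had 43.5 CPM of Itgae, level with T cells.

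Single classes stood out for several other chains. Itga2, known on NK cells as the antigen DX5, was at 59.1 CPM (39.6 to 84.9) with CGG and 46.3 (34.5 to 60.9) with CGG-Cit in NK cells, and the next class, endothelial cells, was at 7.25 and 13.3. Itga2b, the alpha chain of the platelet fibrinogen receptor, was at 276 (200 to 372; 19 cells) and 218 (184 to 256; 60 cells) in the class of mast cells or basophils. The few cells of the megakaryocyte gate (7 and 19) held 548 and 651 CPM of Itga2b and 101.9 and 137 CPM of its partner Itgb3. Outside those, Itgb3 was at 42.4 (35.2 to 50.8) and 26.4 (19.3 to 35.2) in T cells and at 34.6 and 26.5 in endothelial cells, which overlapped. Itga9, which binds tenascin and osteopontin, was highest in macrophages, at 30.9 (27.4 to 34.6) and 33.1 (12.1 to 72.0), with stromal cells at 17.3 and 21.2.

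Most collagen- and laminin-binding chains were highest in the vessel wall or the stroma. Endothelial cells had the highest Itga6, the laminin-binding chain of basement membranes, at 498 CPM (460 to 539) with CGG and 273 (230 to 321) with CGG-Cit. Its partner Itgb4, best known from hemidesmosomes, was also highest there, at 40.3 (29.9 to 53.1) and 41.7 (26.1 to 63.2). The laminin receptor chain Itga3 was at 34.6 (25.1 to 46.6) and 19.0 (9.09 to 34.9) in endothelial cells, and the fibronectin receptor chain Itga5 at 137 (117 to 159) and 92.9 (68.7 to 123). Set against stromal cells, 17 members passed a filter on low values in both libraries (5 CPM or more on average over the 2 classes compared, and 20 UMIs or more). Of these, 5 were at least 2-fold higher in endothelial cells in both libraries (Itga1, Itga5, Itga6, Itgb4 and Pxn), where 12.9% of all genes tested were. Another 4 were at least 2-fold lower (Itga11, Itgav, Itgb5 and Tln2), where 12.3% of all were.

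Mural cells carried the highest levels of 8 members in both libraries, though only 81 and 11 cells were gated. Itgb1, the beta chain shared by the collagen, laminin and fibronectin receptors, reached 1112 CPM (1023 to 1206) and 977 (822 to 1153) there, ahead of NK cells at 783 and 593, endothelial cells at 737 and 578 and stromal cells at 541 (531 to 551) and 450 (408 to 494). A leukocyte class thus exceeded stroma in both libraries. Itga1, a collagen IV receptor chain, was at 219 (181 to 263) and 147 (90.7 to 224), followed by endothelial cells at 91.8 and 62.6. Itga7, the laminin receptor chain of muscle, was at 145 (114 to 181) and 69.8 (33.5 to 128), with no other class of the 15 above 6.42 CPM. Itga8 was at 47.7 and 20.9 (3 UMIs) and Itga10 at 36.2 and 27.9 (4 UMIs). Against stromal cells 7 of 13 members that passed the filter were at least 2-fold higher in mural cells in both libraries, namely Itga1, Itga4, Itgb1, Tln1, Fermt2, Vcl and Ilk, where 6.31% of all genes were. Itga11 alone was at least 2-fold lower, where 9.87% of all genes were. Markers of other classes were present in the mural sum: 10 of 10 macrophage markers added up to 1234 CPM with CGG and 3 of 10 to 174 with CGG-Cit, and 12 and 8 of 12 stromal markers to 1898 and 1682 CPM. Their part in these levels was not tested.

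Stromal cells, the fibroblast-like and marrow reticular cells of the defect, had the highest Itga11, a fibroblast receptor for fibrillar collagen, at 79.7 CPM (76.0 to 83.5) with CGG and 89.9 (71.8 to 111) with CGG-Cit. Mural cells, the next class, had 9.54 and 6.98. Itgb5, the partner of Itgav in a vitronectin receptor, was also highest in stroma, at 214 (208 to 220) and 257 (226 to 292), and macrophages came next at 189 (181 to 198) and 193 (134 to 268). Itgav was shared by stroma and macrophages in the same way, at 98.8 and 82.5 in stromal cells and 98.6 and 93.7 in macrophages. The intervals of the 2 classes overlapped in each library for Itgav, and with CGG-Cit for Itgb5.

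The cytoplasmic partners split along the same line. Fermt3 made up 96.0% to 100% of the UMIs of Fermt2 and Fermt3 in each of the 12 leukocyte and erythroid classes in both libraries, and 0% to 10.6% in stromal, mural and endothelial cells. In the CGG library the share was 2.25% in stromal, 2.39% in mural and 2.22% in endothelial cells, and in the CGG-Cit library it was 10.6% (exact binomial interval 5.75 to 17.4; 13 of 123 UMIs) in the 48 stromal cells. Fermt2 itself was highest in mural cells, at 389 CPM (337 to 446) and 356 (265 to 468), then in endothelial cells at 248 and 220 and stromal cells at 161 and 116. Fermt3 was highest of the 15 classes in mast cells or basophils, at 167 (109 to 245) and 235 (200 to 275), and in monocytes stood at 153 and 154. The 7 and 19 cells of the megakaryocyte gate had more, at 509 and 400.3 CPM. In leukocytes of the CGG library Fermt2 lay between 0 and 6.42 CPM, and in those of the CGG-Cit library between 0 and 0.319.

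Of the talins, Tln1 was found in all 15 classes and Tln2 mostly outside leukocytes. Tln1, the talin of blood cells and most tissues, ranged from 67.6 CPM in erythroid cells to 532 (511 to 553) in monocytes with CGG. With CGG-Cit it ranged from 94.5 to 606 (589 to 623). Outside the 15 classes, the 7 and 19 cells of the megakaryocyte gate had 624 (507 to 760) and 590 (509 to 679). Tln2, known from muscle and brain, was at 42.6 (39.9 to 45.4) and 29.6 (19.7 to 42.8) in stromal cells and 34.3 and 69.8 in mural cells, while every leukocyte class stayed at or under 3.75 CPM. Vcl was highest in mural cells, at 336 (288 to 389) and 279 (199 to 380), and among leukocytes in immature neutrophils, at 161 (150 to 171) and 143 (137 to 149). Ilk, the scaffold that joins the beta tail to parvin and actin, had 204 (167 to 247) and 133 (79.8 to 207) CPM in mural cells and between 26.9 and 108 CPM in the other 14 classes. Pxn was highest in mature neutrophils, at 161 (147 to 177) and 193 (182 to 204), followed with CGG by endothelial cells at 105.

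**Figure D2:**
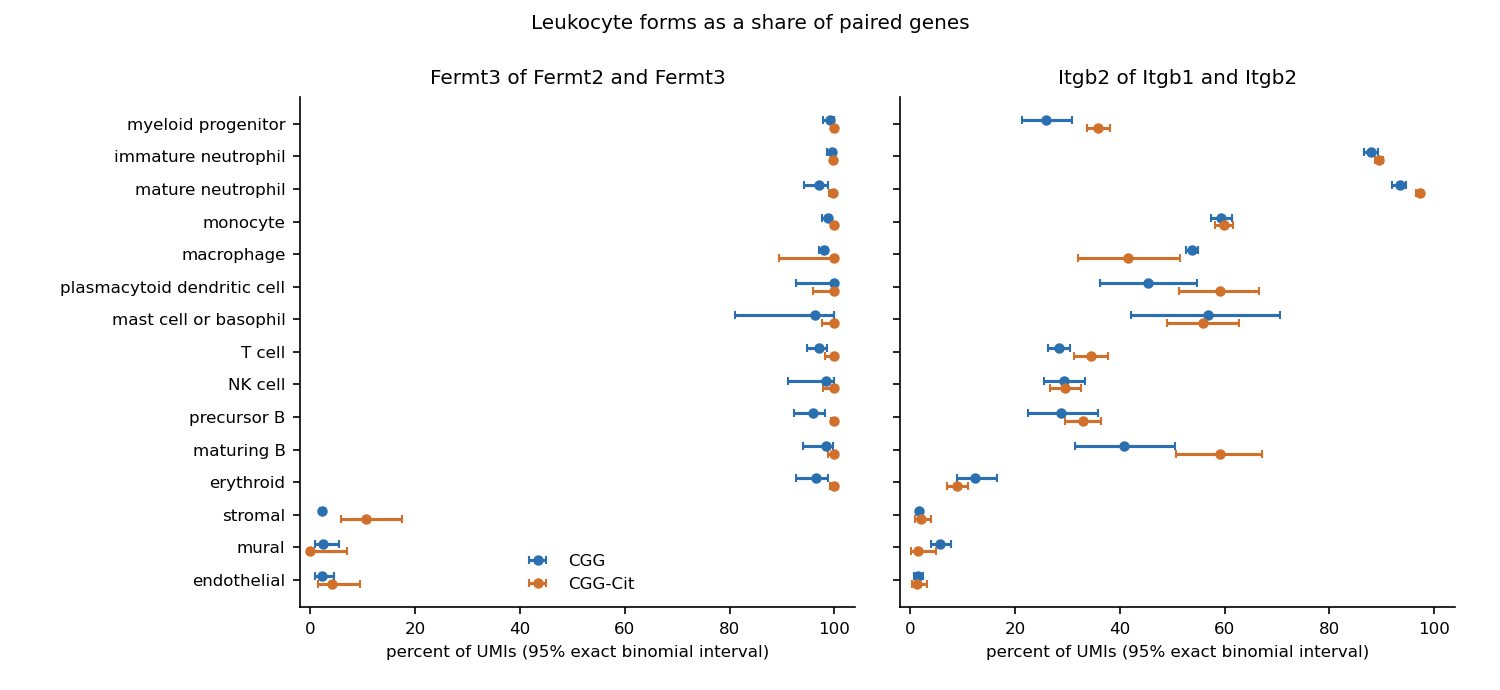
Share of UMIs from the leukocyte form within a pair of genes, Fermt3 of Fermt2 and Fermt3 (left) and Itgb2 of Itgb1 and Itgb2 (right), per cell class for the CGG and CGG-Cit libraries, with 95% exact binomial intervals. The kindlin share is near 0% or near 100%, whereas the Itgb2 share runs from 1.29% in endothelial cells to 97.2% in mature neutrophils.

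The share of Itgb2 was graded between classes, unlike that of Fermt3. Itgb2 made up 88.05% (86.6 to 89.4) and 89.5% (88.7 to 90.3) of the summed UMIs of both chains in immature neutrophils and 93.5% (92.1 to 94.7) and 97.2% (96.6 to 97.8) in mature ones. Monocytes stood at 59.4% and 59.9%, T cells at 28.4% and 34.4%, and NK cells at 29.4% and 29.6%. Stromal, mural and endothelial cells stood between 1.29% and 5.66%. These are shares of transcripts counted at their 3′ ends, so the order of classes is what they show, not the amount of protein.

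Neutrophil development could be followed over 3 classes, from myeloid progenitors (89 and 431 cells) through immature to mature neutrophils, and both libraries gave the same sequence. From progenitor to immature neutrophil Itgam went from 31.5 to 557 CPM with CGG, 17.7-fold, and from 52.0 to 486 with CGG-Cit, 9.33-fold. Itgb2 went from 34.9 to 350 and from 47.8 to 324. Itgal, Itgb3, Vcl and Pxn were also at least 2-fold higher in both libraries, which makes 6 of 15 members, where 8.52% of all genes tested were. Some chains were lower in immature neutrophils: Itga4 went from 108 to 27.9 with CGG and had a ratio of 0.320 to the progenitor level of 103 with CGG-Cit, and Itgb1 from 99.8 to 47.5 and from 85.3 to 38.0. With Itga5 and Itga6, 4 of 15 were at least 2-fold lower, a smaller share than the 41.6% of all genes.

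From immature to mature neutrophil the members moved less, and Itgam did not pass 2-fold. Itgal went from 112 to 254 CPM with CGG, 2.27-fold, and from 75.1 to 197 with CGG-Cit, 2.62-fold (2.42 to 2.84). Itgb7 went from 5.16 to 20.2 and from 2.68 to 11.2. These were 2 of 14 members at least 2-fold higher in both libraries, where 10.8% of all genes were, and Itga6 (11.9 to 4.19 and 11.9 to 2.64) was the 1 member at least 2-fold lower, where 20.8% of all were. Pxn, at 81.3 and 99.2 in immature cells, was at 161 and 193 in mature ones, just short of 2-fold with both hydrogels.

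**Figure D3:**
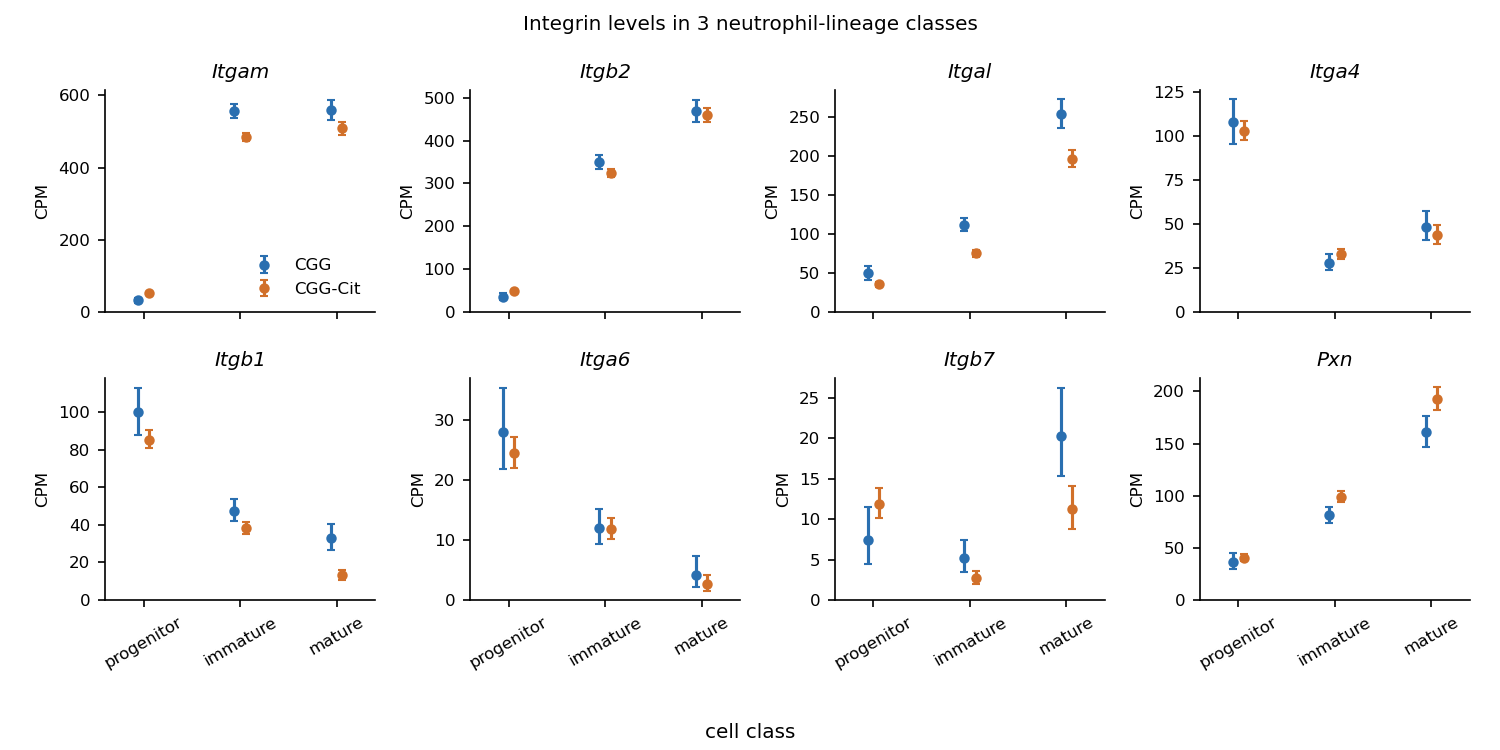
CPM of 8 members in myeloid progenitors, immature neutrophils and mature neutrophils, for the CGG and CGG-Cit libraries, with 95% exact Poisson intervals of the counts. Itgam and Itgb2 are higher from the immature stage on and Itgal is highest at the mature stage, while Itga4 and Itgb1 are highest in progenitors, with both hydrogels.

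Other leukocyte pairs showed further exchanges of chains. Macrophages were at least 2-fold above monocytes in both libraries for 4 of 17 members, where 6.93% of all genes were: Itga6 (60.6 against 8.89 CPM with CGG and 66.1 against 5.55 with CGG-Cit), Itgav, Itgax and Itgb5 (189 against 27.3 and 193 against 17.96). They were at least 2-fold below monocytes for 6 of 17, where 8.98% of all were: Itga1, Itga4 (85.7 against 271 and 55.1 against 271), Itgal, Itgb7, Tln1 and Vcl. Only 15 CGG-Cit macrophages stand behind the second value of each pair, and Itga1 had no UMI there, against 31.0 CPM in monocytes. NK cells differed from T cells in both libraries by more Itga2, Itgam (110 against 11.4 and 82.6 against 6.88) and Itgax, 3 of 18 members where 3.0% of all genes were, and by less Itgae, Itgb3 and Itgb7, again 3 of 18, where 4.78% of all were. Maturing B cells exceeded precursor B cells in Itgal, Itgb3 and Itgb7 (47.6 against 3.72 and 15.6 against 2.32), 3 of 15 where 4.57% of all genes were, and no member was 2-fold lower, where 6.77% of all were.

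The comparison of the hydrogels asks whether these genes differ between CGG and CGG-Cit within a class by 2-fold or more. In the 7 classes with at least 100 cells in each library, the same filter was applied over the 2 libraries (mean at or above 5 CPM, 20 UMIs or more). Summed over the 7 classes, 11 of 102 member values (10.8%, from 7 members) were at or below 0.5 times the CGG level with CGG-Cit, where 4.74% of the values of all genes were. None was at or above 2 times, where 4.12% of all were. The classes share the 2 libraries and members recur between them, so these sums are a description. Itgam, Itgb2, Itga4, Tln1 and Fermt3 were not past 2-fold in any of the 7 classes where they passed the filter, and the highest level among the 11 was 85.2 CPM.

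Immature neutrophils had no member past 2-fold of 13 that passed, against 2.72% of all genes lower and 0.796% higher. In mature neutrophils 3 of 15 were lower with CGG-Cit, where 7.50% of all genes were, and none was higher, where 2.04% were. Itgb1 was at 32.8 CPM (94 UMIs) with CGG and 13.1 (84 UMIs) with CGG-Cit, a ratio of 0.398 (0.293 to 0.540). Itgax was at 14.3 and 4.82, a ratio of 0.337 (0.204 to 0.550), and Itga5 at 7.68 and 2.95, a ratio of 0.385 (0.197 to 0.744). Within the 2 clusters that hold most mature neutrophils, the Itgb1 ratio was 0.547 (0.363 to 0.825) and 0.308 (0.184 to 0.515). RNA of other cell types was also more abundant in CGG neutrophils: all 12 stromal markers were seen in the mature neutrophils with CGG and 8 of 12 with CGG-Cit, summing to 292.9 and 6.06 CPM in the mature neutrophil sums, and 10 and 9 of the 10 macrophage markers, summing to 330.9 and 14.9 CPM. The collagen transcripts Col1a1, Col1a2 and Col3a1 were there at 1.84% of their stromal level with CGG and at 0.0473% with CGG-Cit, and those percentages of the stromal Itgb1 level are 9.98 and 0.213 CPM. The part of such RNA in the 3 ratios was not tested.

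In monocytes 1 of 18 members was lower, where 4.63% of all genes were, and none higher, where 1.63% were. It was Itgax, at 25.2 CPM (122 UMIs) with CGG and 4.49 (38 UMIs) with CGG-Cit, a ratio of 0.178 (0.120 to 0.258). When classes were taken from clusters in place of per-cell gates the monocyte ratio was 0.585, which is not past 2-fold. The gated monocytes that fell in cluster 2, whose cells are mostly gated as macrophages, carried most of it, at 93.5 CPM in 114 CGG cells and 23.6 in 55 CGG-Cit cells, a ratio of 0.252 (0.117 to 0.486). They were 114 of 488 monocytes with CGG and 55 of 675 with CGG-Cit. In cluster 11, which is mostly gated as monocytes, it was at 7.73 and 3.33 CPM, and in cluster 21, also mostly monocytes, the direction was opposite, at 1.13 and 2.38 on 2 and 11 UMIs. Monocytes with CGG also held more of H2-Ab1, an MHC class II chain, at 2139 against 290 CPM, and of the macrophage list, with 10 of 10 markers at 917 CPM in sum against 9 of 10 at 278 in the monocyte class. C1q transcripts in monocytes stood at 2.41% of their macrophage level with CGG, and that percentage of macrophage Itgax is 3.27 CPM. Whether the class holds other proportions of cell states in the 2 libraries was not tested beyond these clusters.

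Itgax was at or below 0.5 times with CGG-Cit in other classes too. T cells had 21.4 and 10.3 CPM, a ratio of 0.482 (0.268 to 0.828), and in cluster 8, which holds most of them, the ratio was 0.632 (0.342 to 1.13). Among classes under 100 cells in a library, NK cells had 173 and 84.4, a ratio of 0.487 (0.359 to 0.662), plasmacytoid dendritic cells 114 and 56.2, a ratio of 0.492 (0.317 to 0.767), and macrophages 136 and 22.0, a ratio of 0.162 (0.0442 to 0.417) on 4 CGG-Cit UMIs. Of all genes, 4.51% were this low in NK cells, 5.17% in plasmacytoid dendritic cells and 14.1% in macrophages, and 6.05%, 8.77% and 8.15% were at or above 2 times, where none of the 15, 13 and 17 members that passed in these classes was. With mature neutrophils, monocytes and T cells, Itgax was called in 6 classes, which all come from the same 2 libraries and are not replicates. Myeloid progenitors had no member past 2-fold of 16, where 1.61% of all genes were lower and 1.02% higher.

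In T cells the 2 other members below 0.5 times were Itgav and Itgb8, the chains of a receptor that frees TGF-beta from its latent complex. Itgav was at 85.2 CPM (239 UMIs) with CGG and 22.9 (40 UMIs) with CGG-Cit, a ratio of 0.269 (0.188 to 0.377). Itgb8 was at 14.6 (41 UMIs) and 2.29 (4 UMIs), a ratio of 0.157 (0.0408 to 0.433). With Itgax this made 3 of 20 members lower, where 6.58% of all genes tested in T cells were, and none higher, where 2.35% were. In cluster 8 alone (421 and 278 T cells) Itgav was at 99.4 and 24.98 CPM and Itgb8 at 19.2 and 2.70. In cluster 25 (154 and 49 cells) Itgav was at 40.8 and 13.01, a ratio of 0.319 (0.0617 to 1.05). All 12 stromal markers were seen in T cells with CGG, at 330.2 CPM in sum, and 6 of 12 with CGG-Cit, at 5.73 CPM. The T cells held collagen transcripts at 2.26% of the stromal level with CGG, and that percentage of stromal Itgav is 2.23 CPM, beside the 85.2 CPM measured. C1q transcripts were at 1.48% of their macrophage level, and that percentage of macrophage Itgav is 1.46 CPM. The T cell mixture also differed between the libraries: Foxp3, the factor of regulatory T cells, was at 64.2 and 28.1 CPM, and Cd8a, a chain of the co-receptor of cytotoxic T cells, at 156 and 219 CPM. The part of this mixture, and of RNA from other cells, in the ratios of Itgav and Itgb8 was not tested.

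In the B lineage 4 ratios were at or below 0.5 times, 1 in precursor and 3 in maturing B cells. Precursor B cells had 1 of 14 lower, where 4.42% of all genes were, and none higher, where 0.453% were: Itga5, at 11.6 CPM with CGG and 4.27 with CGG-Cit, a ratio of 0.370 (0.231 to 0.604). Within its 4 clusters the Itga5 ratio ranged from 0.181 to 0.759. Maturing B cells had 3 of 15 lower, where 5.27% were, and none higher, where 4.93% were. Itgb7 was at 47.6 (49 UMIs) and 15.6 (39 UMIs), a ratio of 0.327 (0.209 to 0.508). Itgb3 was at 20.4 and 7.58, a ratio of 0.372 (0.189 to 0.726), and Itgb1 at 62.2 and 23.95, a ratio of 0.385 (0.266 to 0.557). In the cluster that holds most maturing B cells (303 and 637) the ratios were 0.348, 0.398 and 0.342. In a second cluster (37 and 133 cells) the Itgb1 ratio was 1.11 (0.309 to 6.00), on 3 and 14 UMIs. In the whole maturing B class 11 of 12 stromal markers summed to 369.2 CPM with CGG and 8 of 12 to 5.59 CPM with CGG-Cit, and the collagen share, 2.64% of the stromal level with CGG, corresponds to 14.3 CPM of Itgb1 and 0.262 CPM of Itgb7. The part of such RNA in the ratios was not tested.

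Erythroid cells had no member past 2-fold of 7 that passed, where 20.2% of all genes were higher and 1.54% lower. The median log2 ratio of all genes tested was 0.46 there and that of the 7 members 0.37. Scaling by median ratios in place of totals sets the median of all genes to about 0 by construction. Without haemoglobin, immunoglobulin and mitochondrial genes in the total, 2 of 14 members were at or below 0.5 times. The share of all genes was not computed at that setting. In the other 6 classes the median over members lay below that of all genes: -0.02 against 0.01 in immature neutrophils, -0.30 against -0.10 in mature ones, -0.28 against 0.04 in monocytes, -0.50 against -0.05 in T cells, -0.32 against -0.06 in precursor B cells and -0.49 against 0.03 in maturing B cells.

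**Figure D4:**
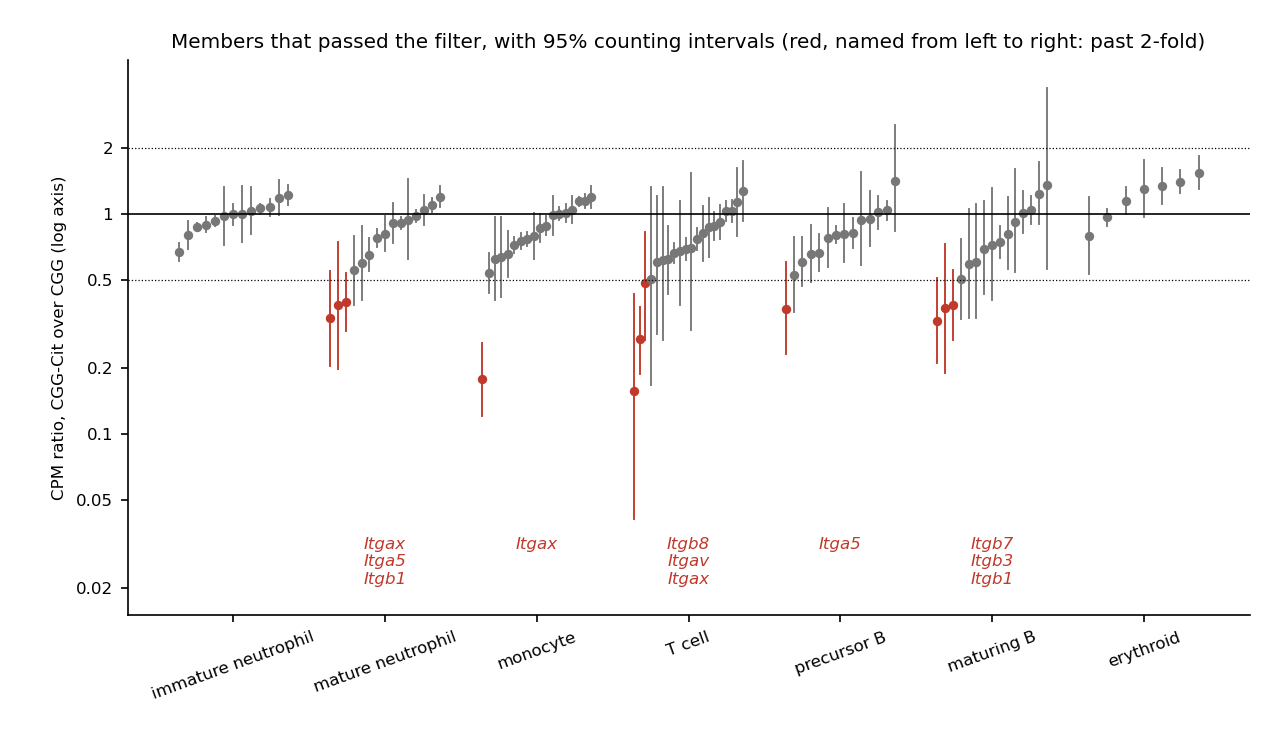
Ratio of CPM with CGG-Cit to CPM with CGG (log axis) for each member that passed the filter in the 7 classes with at least 100 cells per library, ordered by ratio within a class, with 95% counting intervals. Red points are at or below 0.5 times (dotted line) and are named in order from left to right under their class. None lies above the upper dotted line at 2 times.

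The classes of the matrix side were thinly filled with CGG-Cit, and their ratios are given as values. In stromal cells (1234 and 48) 4 of 23 members were at or below 0.5 times, where 4.56% of all genes were: Itga5 at 57.4 and 16.9 CPM, a ratio of 0.295 (0.168 to 0.481), Itgb3 at 31.9 and 11.6, a ratio of 0.365 (0.181 to 0.657), and Itga10 and Itgb7 on 3 CGG-Cit UMIs each. Another 3 were at or above 2 times, where 4.65% were: Fermt3 at 3.71 and 13.8, a ratio of 3.71 (1.89 to 6.69), Itgb8 at 4.30 and 13.8, a ratio of 3.20 (1.64 to 5.74), and Itga4 at 5.25 and 12.7, a ratio of 2.42 (1.21 to 4.39). Neutrophil markers were also higher in stromal cells with CGG-Cit. The 10 immature markers summed to 482.9 CPM with CGG and 994.5 with CGG-Cit, and the 10 mature ones to 185.6 and 650.6 CPM. Itgb8 was at 0.356 CPM in immature neutrophils with CGG, and the part of neutrophil RNA in its stromal ratio was not tested. The endothelial class (135 and 46 cells) had 2 of 17 lower, where 7.08% of all genes were, namely Itgav (48.3 and 13.3 CPM, a ratio of 0.275, 0.106 to 0.602) and Itga4 on 5 CGG-Cit UMIs. They had 1 higher, where 2.18% were, namely Itgam at 10.5 and 32.2 CPM, and the immature neutrophil markers in the endothelial class summed to 325 (8 of 10) and 3142 CPM (10 of 10). In mural cells (81 and 11) 3 of 14 were lower, where 14.2% were (Itga7, Itga8 and Itgb2), and Tln2 was higher, where 5.18% were, on 10 CGG-Cit UMIs or fewer each. Macrophages (935 and 15) had 2 of 17 lower, where 14.1% of all genes were, namely Itgax and, on 1 CGG-Cit UMI, Vcl. Plasmacytoid dendritic cells had 2 of 13 lower, where 5.17% of all genes were, namely Itgax and, at 181 and 83.7 CPM, Itgb1. Mast cells or basophils had 1 of 13 higher, Itga6 at 25.7 (4 UMIs) and 54.1 CPM, where 13.4% of all genes were, and none lower, where 6.92% were. The part of RNA from other cells in these ratios was not tested.

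Around the members, 91 other genes of the pathway were counted in 6 lists. Matrix ligands, the fibronectin, collagen, laminin and other proteins that integrins bind, made up most of those past 2-fold. They were lower with CGG-Cit for 14 of 15 that passed in T cells, 12 of 15 in precursor B cells, 11 of 14 in maturing B cells, 11 of 12 in mature neutrophils, 7 of 9 in immature neutrophils, 7 of 11 in monocytes and 7 of 8 in erythroid cells. Col1a2 in T cells was at 455 CPM with CGG and 5.16 with CGG-Cit, a ratio of 0.0114 (0.00518 to 0.0216), and the ratios of Col1a1, Col1a2 and Col3a1 lay between 0.0114 and 0.0556 in these 7 classes. The median log2 ratio of the list was -3.80 in T cells, where that of all genes was -0.05, and -4.55 in mature neutrophils, where that of all genes was -0.10. Of all genes tested, 1.54% to 7.50% were lower in these 7 classes. Emilin1 was the 1 matrix ligand that was higher, in immature neutrophils (4.45 and 9.43 CPM), where 0.796% of all genes were. In stromal cells 3 of 24 matrix ligands were lower, where 4.56% of all genes were, and 1 (Postn) was higher, where 4.65% were. The part of RNA from other cells in the counts of this list was not tested. Fn1 in monocytes was at 1167 and 1140 CPM, and Thbs1, which leukocytes make, was at 1339 and 426 CPM in monocytes and 2584 and 1222 CPM in mature neutrophils.

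Genes of signalling and activation are read beside the shares of all genes. In the 7 classes 1.54% to 7.50% of all genes tested were lower with CGG-Cit and 0.453% to 20.2% were higher. Of the 19 kinases and downstream genes, 8 to 15 passed the filter in each of the 7 classes and none was past 2-fold in either direction. With so few genes this is no result about the list. Of the cell-surface ligands, Icam1, the main ligand of the Itgb2 receptors, was lower with CGG-Cit in mature neutrophils (15.4 and 2.64 CPM), monocytes (38.1 CPM with CGG, a ratio of 0.342) and maturing B cells (21.4 and 9.98). In erythroid cells 4 of 11 activation regulators that passed were higher, where 20.2% of all genes were. The median log2 shift of all genes in that class was 0.46. The 4 were Apbb1ip (RIAM, which brings talin to the membrane), at 11.8 and 34.2 CPM, Skap2, Fyb and Itgb1bp1. In T cells Apbb1ip was at 116 and 177 CPM, a ratio of 1.53 (1.30 to 1.79). Dab2, an endocytic adaptor of integrin tails, was lower in monocytes (25.4 and 1.54 CPM) and precursor B cells, where Fyb was also lower. Fyb was lower in maturing B cells too (19.4 and 3.99 CPM). Focal adhesion adaptors outside the members were lower in single cases, namely Tns1 in mature neutrophils, Parvb in precursor B cells and Tns3 in maturing B cells. Itgbl1, an integrin-like secreted protein, was lower in mature neutrophils (40 and 2 UMIs) and T cells (38 and 0 UMIs), and stromal cells held 14248 and 478 UMIs of it.

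Some members that are known partners had similar class profiles, and others did not stand out as such. Over 30 points (15 classes in 2 libraries, so that points share a library and the classes differ in depth) Spearman's rho was 0.855 for Itgam and Itgb2, 0.805 for Itgal and Itgb2, 0.791 for Itga1 and Itgb1 and 0.768 for Itgav and Itgb5. It was 0.721 for Itga5 and Itgb1 and 0.580 for Itga4 and Itgb7. Itga6 and Itgb4, Itga2b and Itgb3, and Itgae and Itgb7 are also known pairs, and in none of these was either gene among the 2 members most like the other. The megakaryocyte gate, where Itga2b and Itgb3 were both high, is not among the 15 classes, so these points cannot show whether that pair goes together. The highest, 0.856, was between the collagen receptor chains Itga10 and Itga11. Fermt2 was most like Itga11 (0.758) and Tln2 (0.700), and Fermt3 most like Itgal (0.632) and Itgb7 (0.628).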

How the data were processed

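Single-cell RNA from trimmed defect tissue was captured on the 10x platform (3′ kits, version 2 or 3 per the labels). The authors deposited filtered matrices of raw UMI counts. Cell Ranger 4.0.0 is named per the file headers, whereas the submitters' processing notes name Cell Ranger 3.0 and the mm10 genome. Both libraries list 27998 genes, and the depth per library is given in the report.

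From these counts, cells with at least 200 genes and at most 20% mitochondrial UMIs were kept. Doublets were called with Scrublet (scanpy 1.11.5). It called 1 cell in the CGG library, so the 0.8% per 1000 cells with the highest scores were removed there (1206 cells), and 537 cells were removed in the CGG-Cit library. Each cell was gated on 24 marker lists that hold no member (a marker counts with at least 1 UMI and at least 2 times its mean; at least 3 markers and 30% of the list, and 15 points ahead of any other lineage). Clusters (Leiden, 35 clusters, resolution 1, 2000 variable genes, members left out) served to find the 5 mixed clusters and for an alternative. That choice was made after depths and markers had been seen. In all, 822 and 1244 cells stayed without a class.

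Summed UMIs per class gave CPM with exact Poisson intervals, and ratios had exact conditional binomial intervals. Both cover counting error only. The ratio intervals were tested on simulated Poisson counts, and the CPM intervals were not tested. A gene was called at 2-fold or more where its mean was at least 5 CPM with at least 20 UMIs. Every member is accounted for, and one is given in full in its highest class and wherever it was called in a class of at least 100 cells. Pathway genes were named as up to 3 with the highest and 3 with the lowest bound of the ratio nearest to 1 per class (the 3 collagens and Apbb1ip among them), and the other pathway genes named were chosen after their values were seen. The members, lists and rules were chosen with earlier results of these data known. Itgam is listed under 2 gene identifiers, and the one in GENCODE M21 was used. Of 236 marker genes, 6 are not among the listed names. Alternatives covered scaling, filters, gates, clusters, doublets and depth.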

Additional observations from a re-analysis of the deposited data

Results flagged for a closer look

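Itgb8, the TGF-beta-activating beta chain, differed in direction between 2 classes under the same contrast of hydrogels. In stromal cells the ratio of CGG-Cit to CGG was 3.20 (95 UMIs in 1234 cells and 13 UMIs in 48 cells), and in T cells it was 0.157 (41 UMIs in 580 cells and 4 UMIs in 330 cells). Both counting intervals lie on their own side of 1, but with 1 library per hydrogel the difference itself was not tested.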

How the results depend on the processing

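No paired analysis was possible because each hydrogel has 1 library, and no library could be left out. Of 99 recomputed values of the 11 called ratios (7 members), none turned its direction and 98 stayed inside the main counting interval. Those under other filters on low values were the same by construction, because such a filter decides which genes are called and leaves the ratio unchanged. Of 93 recomputed counts, 71 stayed within 1.5 times. The counts that follow join both directions, and the share of all genes past 2-fold was not computed at these settings. They show dependence on processing and are not a result about the members. Without the filter on low values, members past 2-fold numbered 11 in immature neutrophils, 13 in mature ones, 8 in monocytes, 12 in T cells, 14 in precursor B, 13 in maturing B and 17 in erythroid cells. The members added there lie below 5 CPM or 20 UMIs. With a mean of at least 20 CPM they numbered 1 in mature neutrophils, 0 in monocytes, 1 in T cells and 0 in precursor B cells. A stricter gate gave 2 in precursor B cells, kept doublets 5 in T cells, and totals without haemoglobin, immunoglobulin and mitochondrial genes 2 in erythroid cells. Classes from clusters gave 0 members and 6 pathway genes (10 in the main analysis) in monocytes. With the cells of the 5 mixed clusters kept, an alternative chosen after seeing the data, erythroid cells had 1 member past 2-fold, and pathway genes past 2-fold numbered 14 in immature neutrophils (8), 16 in monocytes (10) and 17 in erythroid cells (11). Shares of cells were set against CPM for members with at least 20 UMIs over the 9 classes of at least 50 cells. In each library at once, 23 members had that many. The class highest by CPM was also highest by share of cells with a UMI for 12 members with CGG and 11 with CGG-Cit. At 2000 UMIs per cell this held for 20 and 20. For the remaining members the 2 measures named different classes. Low counts limit the smaller classes. The cause of the other differences was not tested.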

Other observations

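The CGG library held 10 cells of the osteoclast gate and the CGG-Cit library none. They carried 1443 CPM of Itgb2 (1304 to 1592), 598 of Itgax (510 to 696) and 554 of Itgam, but only 2 UMIs of Itgb3 (7.29 CPM), the chain that defines the vitronectin receptor of resorbing osteoclasts. Of the osteoclast markers, Acp5 was at 1403 CPM, Ctsk at 2408, Atp6v0d2 at 605 and Dcstamp at 72.9 there, while Ocstamp had 4 UMIs and Calcr 2. The macrophage markers summed to 2532 CPM, and Gpnmb was at 3378 and Mmp12 at 10428 CPM, so the name rests on the gate only. The 6 cells of the osteoblast gate, all with CGG, held 108 CPM of Itga10, a collagen receptor chain known from cartilage, on 12 UMIs.

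The second gene identifier listed as Itgam held 487 UMIs with CGG and 634 with CGG-Cit, beside 13455 and 15851 for the one used. The second was not added to the levels given here. The 4080 CGG cells of the mixed clusters held members of both sets at once, with 389 CPM of Itgb1, 148 of Itgb2, 75.7 of Fermt2 and 63.5 of Fermt3.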
